A study of Mus musculus with 8 samples.

Results

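Glucose is carried into a myoblast by transporters of the Slc2a family, phosphorylated by hexokinase and broken down by glycolysis to pyruvate, which lactate dehydrogenase can reduce to lactate for export through monocarboxylate transporters. Pyruvate dehydrogenase kinases inhibit the enzyme complex that passes pyruvate on to mitochondria. The pentose phosphate pathway branches off at glucose 6-phosphate, with an oxidative part that makes NADPH and a non-oxidative part that interconverts sugars and returns them to glycolysis.

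The genes described here are 40 members of these pathways, chosen by gene name and not by a measured value, although earlier results of these data were known. They were represented on the array by 96 probes and 123 spots, of the 56605 probes, 59305 spots and 37074 gene names that were not controls. They comprised 3 glucose transporters, 6 genes of upper glycolysis, 4 genes of the Pfkfb family that set the level of fructose 2,6-bisphosphate, 11 of lower glycolysis, 4 for lactate, 4 pyruvate dehydrogenase kinases, and 4 each for the oxidative and the non-oxidative pentose phosphate pathway.

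Total RNA came from 8 cultures of proliferating C2C12, a mouse myoblast line, at passage 10, each hybridised to 1 one-colour array. All cultures were transfected with Lipofectamine 2000. In the silenced group (n = 4) the antisense LNA GapmeRs Pvt1_1 and Pvt1_3 were given, oligonucleotides that pair with the long non-coding RNA Pvt1 and direct its cleavage. In the control group (n = 4), labelled as not silenced (Mock), negative-control GapmeRs were given instead, so the comparison asks how the transcripts of this one cell line differ when Pvt1 is cleaved. The labels call the cultures biological replicates, and no second cell line or clone was measured. The silencing sequences, written 5′ to 3′, are shown because they define the treatment:
Pvt1_1: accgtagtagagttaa
Pvt1_3: agtcaacgcttcacat

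The brightest Pvt1 probe fell by 2.86 on the log2 scale (limma adjusted p 0.000682), with no overlap between groups. Of 7 myoblast markers, 6 were well above background on all control and 6 on all silenced arrays, and Myod1, Des and Cdh15 were called lower. The summed linear signal of the 8 muscle differentiation markers on the array (of 9 listed) was 12769 to 16555 on control and 3694 to 5044 on silenced arrays. Of these markers, 6 were well above background on all control and 7 on all silenced arrays. Among the 7 tested, only the actins Acta1 and Actc1 were called lower and 0 higher, with Myog at 0.13 and Mef2c at 0.27. The summed signal of 16 liver markers was 1041 to 1900 and 6328 to 7803, with 1 of them well above background on all control and 8 on all silenced arrays. That of 4 blood and immune markers was 11966 to 16995 and 21589 to 27613, and Hbb-b1 among them was not well above background on any array. The part of these markers in the values below was not tested. Of 10 glycolytic enzyme forms typical of liver and testis, 9 stayed near background throughout, with no array well above it. Silenced replicate 4 was the dimmest array, with 51.6% of spots positive and significant against 58.8% to 62.5% on the other 7. Control replicate 3 had the lowest mean correlation with its group (0.964 against 0.978 to 0.983). Controls 1, 2 and 3 and silenced replicate 1 lay in the first row of the slide and the other 4 arrays in the second, so row and group largely coincide.

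A gene was represented by its brightest tested probe, and the change is the mean log2 signal in silenced minus control cells after quantile normalization. It was called when limma's p, adjusted by the Benjamini-Hochberg method over all 28649 tested probes, was under 0.05. Of the 40 members, 39 had a tested probe, 35 of these were well above background on all 8 arrays, and no member spot was saturated. Slc2a3, the high-affinity glucose transporter, was not tested because its probes had values on 4 control and 2 silenced arrays at one and on none at the other, where at least 3 in each group were needed. RNA from fewer cells and less RNA per cell cannot be told apart in such bulk samples.

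In silenced cells 3 members were called higher, Pfkfb4, Aldoc and Pdk1, and 6 lower, Pfkl, Gapdh, Pkm, G6pdx, G6pd2 and Pgd. Over all 19360 genes represented in the same way, 5.99% were called higher and 14.0% lower, against 3 and 6 of 39 members. The median change was 0.05 over the members, -0.09 over all genes and -0.19 over all probes. By role, 3 of 4 genes of the oxidative pentose phosphate pathway were called lower and none of the 4 of its non-oxidative part at the brightest probe, although Rpe among the latter was called lower at another probe; the difference between the parts was not tested. All 9 members kept their direction under every alternative normalization, filter and left-out array that was computed. With 1 array left out at a time, Pfkl, G6pd2 and Pgd were called in all 8 fits. Pdk1 was lost without control replicate 4 (1.02, limma adjusted p 0.0509), and the calls of Pfkfb4, Aldoc, Gapdh, Pkm and G6pdx were each lost in 4 or more of the 8 fits, among them those without control replicates 2 and 4 and silenced replicates 1 and 3. The adjusted p in these fits without a call was 0.0518 to 0.103.

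**Figure D1:**
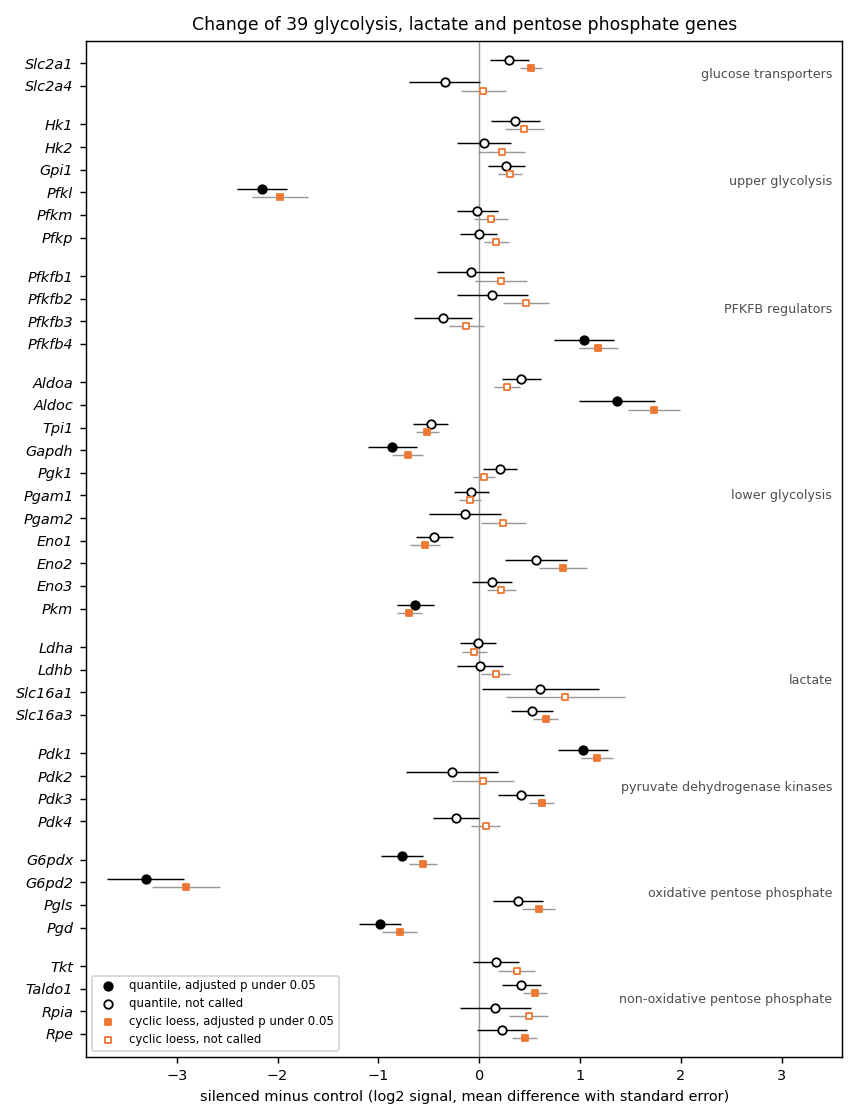
Change of each of the 39 tested members (horizontal axis, log2 signal, silenced minus control, with the standard error), grouped by role. Black circles are quantile normalized values and orange squares cyclic loess values, filled where the adjusted p was under 0.05. Pfkl at -2.15 and G6pd2 lie farthest to the left, and Aldoc farthest to the right, at 1.36. G6pd2 was not well above background on silenced arrays, so its point is a fitted value and the fall has only a bound, at least 6.84-fold.

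The number of rising members depended on how arrays were brought to one scale and on whether dim spots were masked. Quantile normalization without masking called 11 members higher and 8 lower, with 19.7% and 11.0% of all genes. With cyclic loess, which aligns arrays by smooth curves, 10 members were called higher and 8 lower. The 9 members named above were among them in the same direction, and the others were Slc2a1, Eno2, Slc16a3, Pdk3, Pgls, Taldo1 and Rpe higher, and Tpi1 and Eno1 lower. Over all genes this normalization called 22.1% higher and 14.3% lower. Lower calls made up 70.1% of all called genes with quantile and 39.2% with cyclic loess normalization, and the median change of the members became 0.22 against 0.11 over all genes. After masking and quantile normalization, probes on silenced replicate 4 deviated from their mean over arrays by a median of -0.65. On each other array this median was between -0.07 and 0.18, and with cyclic loess it was 0.003 on silenced replicate 4. The part of this offset in the counts was not tested. Without silenced replicate 4, quantile normalization called 5 members higher and 7 lower, with 15.5% and 13.9% of all genes. With the slide row as a block, 0 members were called higher and 3 lower (Pfkl, G6pd2 and Pgd), with 2.41% and 5.97% of all genes; at an unadjusted p under 0.05 there were 3 and 6. Cyclic loess with the row as a block called 7 higher and 6 lower, with 15.1% and 8.95% of all genes.

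In upper glycolysis only Pfkl was called at the brightest probe. Pfkl encodes the liver-type subunit of phosphofructokinase, which catalyses the committed step. Its probe at chr10:77450926-77450985 (build mm9) gave log2 signals of 13.63, 13.74, 14.14 and 13.79 on control arrays 1 to 4 and of 11.74, 11.98, 11.05 and 11.90 on silenced arrays 1 to 4. Every silenced array was below every control array. Silenced cells kept 22.5% of the control signal, a change of -2.15 (SE 0.25) with a limma adjusted p of 0.00076, and it was -2.09 within the first and -2.14 within the second slide row. The first 30 bases of this probe, shown because the second Pfkl probe gave a different result, were:
Pfkl: ccgcaccttgagcatagacaagggtttctg

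The other tested Pfkl probe, at chr10:77470357-77470416, matches a cDNA clone outside RefSeq and lies 19431 bases nearer the 5′ end on the genome. It gave 9.04, 8.97, 9.79 and 9.29 on control and 10.02, 9.81, 10.55 and 9.03 on silenced arrays. These values overlapped, with a change of 0.58 (SE 0.33, limma adjusted p 0.239) that cyclic loess called higher at 0.84. Averaged over both probes Pfkl changed by -0.79, still called lower. Of the muscle and platelet subunits, Pfkm changed by -0.02 (SE 0.20) and Pfkp by 0.00 at its brightest probe, -0.0045 before rounding (SE 0.18), and neither was called there. Another Pfkp probe was called lower at -0.68, and the difference between subunits was not tested. Hexokinase 2, the form regulated in muscle, changed by 0.05 (SE 0.27). Hexokinase 1 changed by 0.36 (SE 0.24) with only 3 silenced values, since replicate 4 had none.

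The glucose transporters had 2 tested members. Slc2a1, the basal transporter, had a log2 signal of 13.90 to 14.14 on control and 14.05 to 14.52 on silenced arrays. These ranges overlapped through silenced replicate 4, and the change of 0.30 (SE 0.19) was not called. With cyclic loess it was called at 0.51, without overlap. Slc2a4, the insulin-responsive transporter, lay near background at 6.32 to 7.14 and 5.51 to 6.83 and was not called.

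Among the bifunctional enzymes that make and remove fructose 2,6-bisphosphate, an activator of phosphofructokinase, only Pfkfb4 was called. It is named although its groups overlap, a choice made after its values were seen. The log2 signals were 10.00, 9.94, 10.97 and 10.40 on control and 11.55, 11.41, 11.72 and 10.78 on silenced arrays at chr9:108934652-108934711. The overlap came from control replicate 3 and silenced replicate 4. The change was 1.04 (SE 0.30, limma adjusted p 0.0314) and 1.18 with cyclic loess, where the groups did not overlap. Pfkfb1, Pfkfb2 and Pfkfb3 changed by -0.09, 0.13 and -0.36 and were not called.

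In lower glycolysis, Aldoc, the aldolase form best known from brain, was called higher while its main form in muscle, Aldoa, was not. The brightest Aldoc probe (chr11:78140198-78140257) had log2 signals of 7.19, 7.32, 8.26 and 7.54 on control and 9.18, 8.75, 9.77 and 8.05 on silenced arrays. Silenced replicate 4 fell below control replicate 3. The change was 1.36 (SE 0.38, limma adjusted p 0.0284), or 1.73 with cyclic loess, and 1.59 and 1.32 within the slide rows. With cyclic loess the groups did not overlap. Aldoa had 16.21, 16.19, 16.60 and 16.39 on control and 16.68, 16.72, 17.01 and 16.65 on silenced arrays. All its silenced arrays were above all control arrays, yet the change of 0.42 (SE 0.19, limma adjusted p 0.152) was not called.

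Gapdh, which oxidises glyceraldehyde 3-phosphate and is often used as a reference gene, was called lower. At its brightest probe (chr6:125112496-125112555) the log2 signals were 17.77, 17.77, 16.93 and 17.41 on control and 16.57, 16.80, 16.33 and 16.73 on silenced arrays. The groups did not overlap, and the change was -0.86 (SE 0.24, limma adjusted p 0.0304). Pgk1, the next enzyme, had 16.42, 16.53, 16.58 and 16.49 on control and 16.66, 16.73, 16.69 and 16.74 on silenced arrays. Its groups did not overlap either, and the change of 0.20 (SE 0.17, limma adjusted p 0.429) was not called.

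Pkm, the pyruvate kinase of muscle and proliferating cells, had 16.44, 16.50, 16.74 and 16.62 on control and 15.95, 16.07, 15.77 and 15.98 on silenced arrays at its brightest probe (chr9:59527030-59527089). All silenced arrays were lower, by a mean of -0.63 (SE 0.18, limma adjusted p 0.0322). The ubiquitous enolase Eno1 changed by -0.44 (SE 0.18, limma adjusted p 0.109) and triosephosphate isomerase, Tpi1, by -0.48 (SE 0.17, limma adjusted p 0.0749), both without overlap between groups. The muscle enolase Eno3 and the mutases Pgam1 and Pgam2 changed by 0.13, -0.08 and -0.14. Eno2, the neuronal enolase, changed by 0.56 (SE 0.31) and was not called, although it was with cyclic loess.

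For lactate, no member was called with quantile normalization. Ldha, which reduces pyruvate, changed by -0.02 (SE 0.18) and Ldhb by 0.01 (SE 0.22). The exporter Slc16a3 had 11.48 to 12.03 on control and 11.92 to 12.41 on silenced arrays, a change of 0.52 (SE 0.21) that cyclic loess called at 0.66. Slc16a1, the other lactate transporter, had 13.14, 13.64, 10.67 and 13.53 on control arrays, so control replicate 3 stood apart, and 13.20 to 13.47 on silenced arrays.

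Of the kinases that switch off pyruvate dehydrogenase, Pdk1 was called higher. Its brightest probe (chr2:71739926-71739985) had log2 signals of 10.19, 10.52, 10.80 and 10.47 on control and 11.62, 11.36, 12.02 and 11.08 on silenced arrays. All silenced arrays were above all control arrays. The change was 1.02 (SE 0.25, limma adjusted p 0.0165), about 2.03-fold, and 1.11 and 1.01 within the slide rows. Pdk2, Pdk3 and Pdk4 changed by -0.27, 0.42 and -0.23 and were not called, although Pdk3 was with cyclic loess, at 0.62.

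The oxidative pentose phosphate pathway had the lowest median change of the 8 groups of members, -0.88, and -0.67 with cyclic loess, with G6pd2 at its fitted value. G6pdx, the X-linked glucose 6-phosphate dehydrogenase that starts the pathway, had 14.43, 14.58, 15.00 and 14.72 on control and 14.02, 14.15, 13.87 and 13.63 on silenced arrays (chrX:71654949-71655008). The groups did not overlap and the change was -0.77 (SE 0.21, limma adjusted p 0.0274). Pgd, which carries out the second oxidation, had 14.39, 14.96, 14.90 and 14.89 on control and 13.83, 13.97, 13.52 and 13.87 on silenced arrays (chr4:148524293-148524352). All silenced arrays were lower, by a mean of -0.99 (SE 0.21) with a limma adjusted p of 0.00936, so that 50.5% of the control signal remained. Pgls, the lactonase between these steps, changed by 0.39 (SE 0.25) and was called higher with cyclic loess, at 0.59.

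G6pd2, an autosomal copy of G6pdx, showed the largest fitted fall of any tested member. Its single probe (chr5:62200957-62201016) had 9.03, 9.50, 7.96 and 9.40 on control and 5.91, 6.17, 5.63 and 4.96 on silenced arrays. It was well above background on all 4 control and none of the silenced arrays, the only such member, a pattern that 1.13% of all genes showed. The means were 8.97 ± 0.70 (SD, n = 4) and 5.67 ± 0.52 (SD, n = 4), and the control signal was at least 6.84-fold higher, with limma adjusted p 0.00075. Whether this probe also binds RNA of G6pdx was not tested, and its sequence is given for that reason:
G6pd2: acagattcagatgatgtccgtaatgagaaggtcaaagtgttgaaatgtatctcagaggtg

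The non-oxidative enzymes Tkt, Taldo1, Rpia and Rpe changed by 0.17, 0.42, 0.16 and 0.22 at their brightest probes, and none was called. Taldo1, the transaldolase, had 14.71 to 15.16 on control and 15.24 to 15.55 on silenced arrays without overlap, and was called with cyclic loess at 0.55. Over all members, 4 lay higher in every silenced than in every control array and 8 lower, against 7.10% and 18.9% of all genes.

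**Figure D2:**
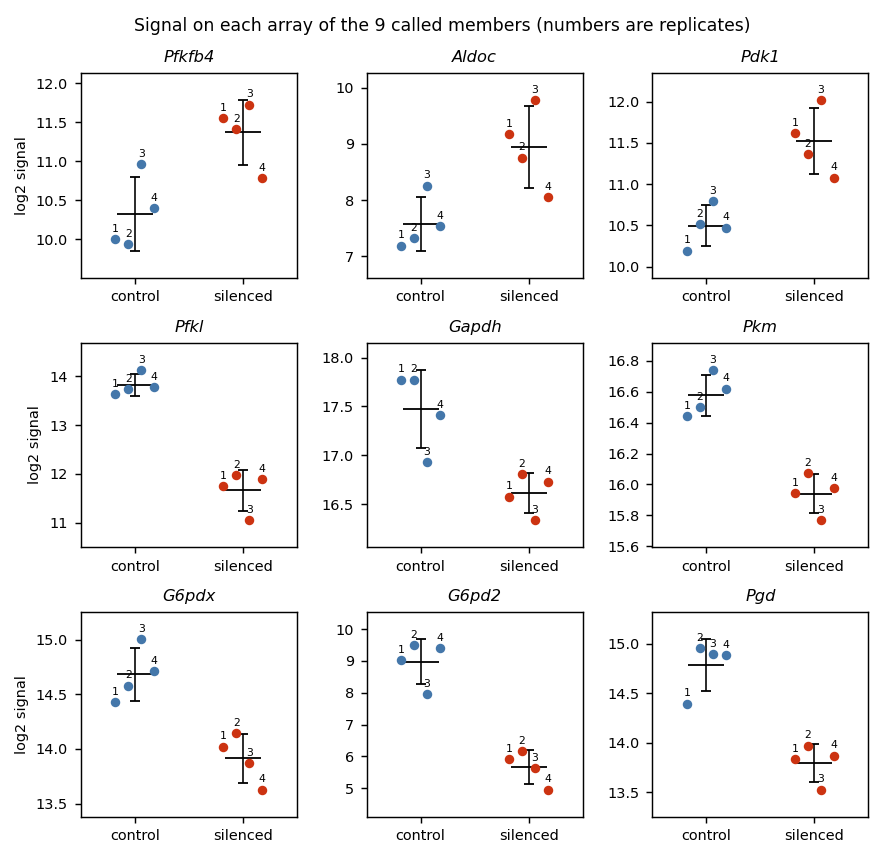
Log2 signal (vertical axis, a separate scale in each panel) on each array of the 9 members called with quantile normalization. Points are arrays numbered by replicate, and bars the mean and SD of 4 arrays. Control and silenced arrays overlap for Pfkfb4 and Aldoc and not for the other 7. With cyclic loess, not drawn here, the groups of Pfkfb4 and Aldoc did not overlap.

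Several members had probes at more than 1 place in the transcript, and these did not move alike. Counted by probe, 3 of 79 tested member probes were called higher and 21 lower, against 4.79% and 18.4% of all probes, and with cyclic loess 12 and 24, against 18.9% and 18.4%. In 10 of the 20 members with 2 or more tested probes, one probe was called and another was not. For each of these 20 members the change at the tested probe nearest the 5′ end was set against that at the probe nearest the 3′ end, within each array. The difference was below 0 in 18 members, and in 70.5% of all 6248 genes with such a pair (15 members and 68.5% with cyclic loess). It was called lower for 10 members (Gpi1, Aldoc, Tpi1, Gapdh, Eno1, Pkm, Ldha, Pdk1, Pdk3 and Rpe) and higher for Pfkl, against 31.5% and 7.20% of all pairs. With cyclic loess 8 members were called lower and 1 higher, against 28.4% and 8.05%. The members thus shared a direction that most genes with such pairs on these arrays also had.

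**Figure D3:**
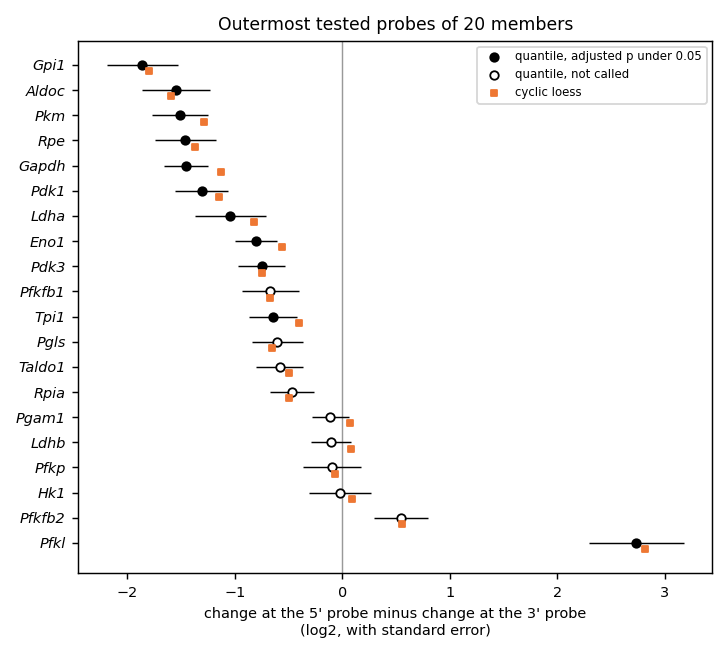
Change at the tested probe nearest the 5′ end minus change at that nearest the 3′ end (horizontal axis, log2 with standard error) for 20 members. Filled circles had an adjusted p under 0.05 and orange squares are cyclic loess values. Gpi1 is lowest at -1.86, and only Pfkfb2 and Pfkl lie above 0 with both normalizations.

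Gapdh had the most tested probes, 7. In the order of their start in the RefSeq transcript, the changes were -1.58 at base 346, -1.26 at 429, -1.60 at 581, -0.86 at 930, -0.61 at 1087 and -0.11 at 1324. The probe of a cDNA clone at the 3′ end changed by -0.12. The files place the probe at base 1087 by a match of part of its length at chr6:125111848-125111866, which on the genome is beyond the probe at base 1324, so its order by transcript and by genome disagree. They place the clone probe by a partial match too, at chr6:125111858-125111865. Which of these probes lies nearer the 3′ end is thus uncertain, and the pair difference below would be smaller with the probe at base 1087. At base 346 the log2 signals were 15.30, 15.36, 15.14 and 15.59 on control and 13.86, 14.25, 13.30 and 13.67 on silenced arrays, and no array overlapped. At base 1324 they were 16.81, 16.85, 16.82 and 16.82 on control and 16.81, 16.76, 16.58 and 16.72 on silenced arrays, and the groups overlapped. Cyclic loess called this probe lower, at -0.36 and without overlap. Between base 346 and the clone probe, the pair compared for Gapdh, the difference was -1.45 (SE 0.21, limma adjusted p 0.00113). With quantile normalization the remaining share of the control signal was thus 33.5% by one probe and 92.9% by another of the same gene. The probes are shown because the answer for Gapdh depends on which is read (the last is cut to its first 30 bases), at chr6:125113312-125113371, chr6:125112979-125113038, chr6:125112496-125112555 and chr6:125111908-125111967 of mm9, minus strand:
Gapdh base 346: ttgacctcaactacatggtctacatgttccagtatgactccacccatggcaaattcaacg
Gapdh base 581: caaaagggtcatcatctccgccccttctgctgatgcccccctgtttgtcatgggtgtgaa
Gapdh base 930: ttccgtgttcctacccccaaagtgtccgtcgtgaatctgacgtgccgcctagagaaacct
Gapdh base 1324: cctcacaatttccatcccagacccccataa

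Gpi1, which interconverts glucose and fructose 6-phosphate, was called lower at its probes nearer the 5′ end and not called at the others. The probe at base 1515 (chr7:34987856-34989053) had 14.24, 14.82, 14.87 and 14.66 on control and 13.11, 13.42, 12.66 and 13.25 on silenced arrays. All silenced arrays were lower, by -1.54 (SE 0.24, limma adjusted p 0.0024), and the clone probe at base 799 changed by -1.69 (SE 0.31, limma adjusted p 0.00493). The brightest probe, at base 1995 (chr7:34987178-34987237), had 15.24, 15.58, 15.69 and 15.51 on control and 15.73, 15.79, 15.89 and 15.69 on silenced arrays. There the change was 0.27 (SE 0.19, limma adjusted p 0.332), and 0.17 at base 1999. The gene as a whole was therefore not called by its brightest probe and was called lower by the mean of its probes. The probe at base 1515 and the first 30 bases of that at 1995, minus strand of mm9, were:
Gpi1 base 1515: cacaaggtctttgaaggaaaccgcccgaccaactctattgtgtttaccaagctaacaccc
Gpi1 base 1995: tgtcatgttgttctgacctgtatttcacac

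Other enzymes of lower glycolysis also changed less at a probe near the 3′ end. Eno1 changed by -2.14 (SE 0.31) at base 413, where control arrays had 14.31, 14.73, 13.68 and 14.63 and silenced arrays 12.17, 12.72, 11.56 and 12.33. At base 1721 it had 16.50, 16.67, 16.43 and 16.66 on control and 16.14, 16.26, 15.90 and 16.18 on silenced arrays, a change of -0.44. Both probes were lower without overlap, by unequal amounts. Another Eno1 probe, of an Ensembl transcript and nearer the 5′ end on the genome than both, changed by -1.25, less than at base 413, so the changes did not follow position throughout. Pkm changed by -1.72 (SE 0.29) at base 1087, with 13.83, 14.17, 13.23 and 14.13 on control and 12.14, 12.68, 11.83 and 11.82 on silenced arrays. Against this stood -0.63 at base 2279 and -0.21 at a clone probe downstream. Tpi1 changed by -1.13 at base 539, -1.24 at 634 and -0.48 at 1204. At base 634 its signals were 14.60, 14.88, 14.85 and 14.86 on control and 13.65, 14.01, 13.12 and 13.44 on silenced arrays, and at 1204 they were 16.22, 16.28, 16.48 and 16.30 and 15.84, 15.77, 15.80 and 15.95. The silenced arrays were below the control arrays at each Tpi1 probe.

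With quantile normalization Pdk1 and Aldoc were called higher only at the probe nearest the 3′ end. Pdk1 changed by -0.29 at base 402, 0.58 at 2957 and 1.02 at 3195, and its probe at base 711 was not well above background on any array. Cyclic loess called both of the last, at 0.88 and 1.17. At base 2957 the signals were 8.81, 8.97, 8.86 and 9.06 on control and 9.70, 9.94, 9.79 and 8.59 on silenced arrays, where silenced replicate 4 alone fell below the controls. Aldoc changed by 0.17 at base 1403 against 1.36 at 1637, and by -0.19 at a clone probe upstream. At base 1403 it had 6.31, 6.56, 7.36 and 6.82 on control and 7.15, 7.27, 7.02 and 6.28 on silenced arrays, which overlapped. Averaged over all tested probes the change was 0.15 for Pdk1 and 0.45 for Aldoc, and neither was called. Pfkfb4 had 1 tested probe.

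Rpe, the ribulose 5-phosphate epimerase, changed by -1.24 (SE 0.33, limma adjusted p 0.0241) at base 201, -0.54 at 811 and 0.22 at 2271. At base 201 the signals were 7.13, 7.69, 7.03 and 7.75 on control and 5.73, 6.74, 6.65 and 5.52 on silenced arrays, and at 2271 they were 9.41, 9.73, 9.82 and 9.54 and 9.91, 9.91, 10.31 and 9.26. With cyclic loess Rpe and Pfkl had probes called in both directions. Pfkp changed by -0.68 (SE 0.19, limma adjusted p 0.029) at base 2185, with 11.31, 11.53, 11.40 and 11.51 on control and 10.89, 10.97, 10.61 and 10.55 on silenced arrays. Its brightest probe, at base 2504 of another transcript, had 12.55, 12.89, 12.96 and 12.79 on control and 12.81, 12.88, 12.79 and 12.69 on silenced arrays, which overlapped. G6pdx, G6pd2 and Pgd had 1 tested probe each, so no such comparison can be made for the oxidative pentose phosphate genes that were called. Gapdh and other abundant members have many processed pseudogenes, and signal from their RNA cannot be told apart at these probes.

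**Figure D4:**
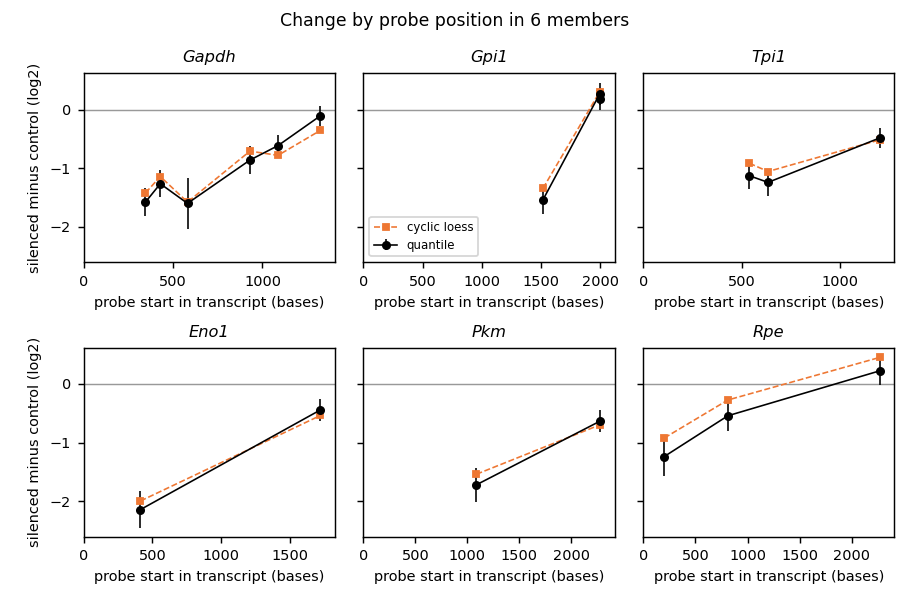
Change (vertical axis, log2 signal, silenced minus control) against the start of the probe in its RefSeq transcript (horizontal axis, bases from the 5′ end) for 6 members. Circles with standard errors are quantile normalized and squares cyclic loess values. Lines join the probes of a gene, and the highest point of each is its last probe (for Gpi1 the one just before it), from -0.63 for Pkm to 0.27 for Gpi1 with quantile normalization.

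The neighbouring genes of glucose metabolism, 53 listed by role (chosen with earlier results known), had 35 tested, of which 3 were called higher and 6 lower, against 5.99% and 14.0% of all genes, shares that the counts lay near. With cyclic loess there were 11 and 6, against 22.1% and 14.3%. Higher were Shpk, the sedoheptulose kinase that feeds the non-oxidative pentose phosphate pathway, by at least 2.56-fold (not well above background on control arrays), the glucose transporter Slc2a6 by 1.08 (groups overlapping), and Pdhb, a subunit of pyruvate dehydrogenase, by 0.68. Lower were Pck2, mitochondrial phosphoenolpyruvate carboxykinase, by -1.83, the glycogen phosphorylase Pygb by -1.30, Bsg, a chaperone of the lactate transporters, by -1.20, the ADP-dependent glucokinase Adpgk by -0.95 and the glycogen synthase Gys1 by -0.72. Slc2a8, a glucose transporter also called lower, was well above background on 3 control and no silenced arrays, and the fall was at least 1.03-fold. Hkdc1, a hexokinase relative with too few control values to be tested, was well above background on all 4 silenced and no control arrays, at least 2.68-fold higher. Of 13 transcription regulators, all tested, Txnip, an inhibitor of glucose uptake, was called higher by 1.51 and Mlxipl, a glucose-sensing factor, by 0.84 at its brightest probe. Another Mlxipl probe, at base 3101, was called lower, by at least 2.31-fold (limma adjusted p 0.0029), and was not well above background on silenced arrays. Mlxip, its relative, was called lower by -0.85 and Trp53 by -1.38. The Trp53 groups overlapped through control replicate 3, at 10.73, and the call was lost with cyclic loess (limma adjusted p 0.0604). Hif1a, the oxygen-regulated factor, changed by 0.36 (limma adjusted p 0.482). Its control replicate 3 was at 11.46, against 12.73 to 12.78 on the other control and 12.39 to 13.22 on silenced arrays.

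The promoters of the 3 members called higher were read from RefSeq's promoter table (build GRCm38.p6) to show the start regions of these genes, whose number lay near the share of all genes called higher. Of the 40 members 38 matched by symbol, with 58 windows of 250 bases before a start. The E-box CACGTG, searched on both strands, was in a window of 6 members, or 15.8%, against 6.86% of 27025 genes. The hypoxia response core ACGTG or GCGTG, on either strand and counted also where it overlaps an E-box, was in a window of 32 members, or 84.2%, against 41.5% of genes. A gene with more windows is likelier to be counted. By window, the core was in 42 of 58, against 38.6% of all 32851 windows. The core was held by all 3 members called higher, 5 of the 6 called lower and 24 of 29 not called. With the core in most members of each kind, these counts cannot tell whether it goes with a direction. No called member held the E-box. Aldoc and Pdk1 each had another window farther downstream, not shown, with 1 core for Aldoc and 0 for Pdk1. The windows shown, with the core in capitals and all on the plus strand, lie at chr9:108991652-108991901, chr11:78322823-78323072 and chr2:71872974-71873223:
Pfkfb4: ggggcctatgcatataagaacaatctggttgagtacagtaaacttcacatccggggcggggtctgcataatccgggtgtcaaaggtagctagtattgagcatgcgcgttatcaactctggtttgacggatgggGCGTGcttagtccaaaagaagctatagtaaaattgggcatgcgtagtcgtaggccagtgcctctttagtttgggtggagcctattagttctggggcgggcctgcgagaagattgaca
Aldoc: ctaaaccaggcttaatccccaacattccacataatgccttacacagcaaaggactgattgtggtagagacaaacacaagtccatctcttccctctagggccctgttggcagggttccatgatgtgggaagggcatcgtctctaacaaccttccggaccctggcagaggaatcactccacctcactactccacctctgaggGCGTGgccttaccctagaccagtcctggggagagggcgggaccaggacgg
Pdk1: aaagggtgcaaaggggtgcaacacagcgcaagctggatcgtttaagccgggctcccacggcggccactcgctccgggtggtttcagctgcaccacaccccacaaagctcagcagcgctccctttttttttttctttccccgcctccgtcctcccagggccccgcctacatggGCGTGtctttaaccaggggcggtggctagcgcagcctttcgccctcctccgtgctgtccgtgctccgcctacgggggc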

How the data were processed

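Total RNA of 4 silenced and 4 control cultures was labelled with Cy3 and hybridised to Agilent mouse arrays. Per the file headers, Feature Extraction 12.0.0.7 gave the background-subtracted processed intensity of each spot, while the labels name version 10.7.3.1. The flags for spots positive and significant, well above background, saturated or outlying are 0 or 1, as deposited by the authors. Normalized intensity values from the series table that the authors deposited served as an alternative. The columns of every file matched a sample.

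Following the study's methods, spots not positive and significant were set to missing, log2 of the intensity the authors deposited was taken, arrays were quantile normalized and spots of a probe averaged. Outlier spots were left out here. Probes with at least 3 values in each group entered a linear model with moderated variances (limma 3.58.1 under R 4.3.3), group being the only term, with Benjamini-Hochberg adjustment over 28649 probes. An unequal-variance t-test, which the study names for the silencing arrays, was run as an alternative, also with the Bonferroni correction that it names for arrays of muscle fibres. Exact two-sided permutation p-values over 4 against 4 arrays cannot go below 0.0286. Probe pairs were compared by fitting their difference on each array for 6248 genes.

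The bound for a probe dim in 1 group sets the bright group's mean against a floor for each dim array, either the dimmest signal that was well above background there or the probe itself where brighter. Values on every array were given for members whose brightest probe was called without overlap, was well above background in 1 group only, or disagreed with another probe of the gene, and for the 4 brightest; other members are given by ranges or changes. The members and lists were chosen with earlier results of these data known. Coordinates are those of the files (mm9), and exons and UTRs were not analysed here. Figures were drawn with matplotlib 3.10.9. The number of arrays limits the precision.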

Additional observations from a re-analysis of the deposited data

Results flagged for a closer look

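For each member's brightest probe, an array was marked when its distance to the nearest other array of its group exceeded Dixon's 95% critical share of the group's range, which chance does in about 1 in 20 groups. Of 76 groups of 4 arrays, 5 were marked. Slc16a1 had 13.14 to 13.64 on 3 control arrays and 10.67 on control replicate 3. Slc2a1 was at 13.90 and Pgd at 14.39 on control replicate 1, against 14.12 to 14.14 and 14.89 to 14.96 on the others. Eno2 was at 8.90 and Tkt at 13.16 on silenced replicate 4, against 9.46 to 9.56 and 13.46 to 13.50 on the others. No cause was tested.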

How the results depend on the processing

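With quantile normalization 6642 probes were called, and 3 members were called higher and 6 lower, with a median change of 0.05; of the neighbouring genes 3 were higher and 6 lower. Shifting arrays to the 75th percentile called 11434 probes, with 17 members higher, 2 lower, a median of 0.45 and 11 neighbouring genes higher. The median of all probes was then 0.17, and 37.6% of calls were lower, against 79.3% with quantile normalization. Cyclic loess called 10674 probes (49.3% lower), 10 members and 11 neighbouring genes higher. The authors' series table and the fit without masking dim spots each called 11 members and 11 neighbouring genes higher, a robust trended prior 5 and 5, and normexp 6 neighbouring genes. Relative to the median of all probes, 3 members were lower and 6 neighbouring genes higher. Averaging a gene's probes gave 1 member higher, a median of -0.14 and a change of -0.70 for Gpi1, reversed from 0.27. Blocking on slide row called 3107 probes, 0 members higher, 3 lower and 1 neighbouring gene higher. The methods' t-test called 3420 probes and 1 member higher after Benjamini-Hochberg adjustment, and 6 probes with 0 members higher and 0 lower after Bonferroni adjustment, where an unadjusted p under 0.05 gave 7 and 8. Causes of these differences were not tested. Leaving aside the methods' t-test, Pfkl kept its call and direction in 30 of 30 alternatives, with -0.79 over averaged probes, G6pd2 in 29 of 29 and Pgd in 29 of 30, Pgd being lost with the 75th percentile; Pdk1 kept it in 27, Aldoc and Pfkfb4 in 23, G6pdx and Gapdh in 21 and Pkm in 19.

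Chosen after seeing the data were cyclic loess with the slide row as a block (7 members and 7 neighbouring genes higher), cyclic loess with 1 array left out, and the comparison of probes named by a RefSeq accession at both ends (4 of 10 members lower in place of 10 of 20, with 39.6% of all such pairs). With 1 array left out, quantile normalization called 3703 (without control replicate 4) to 8752 probes (without silenced replicate 4), 0 to 5 members higher and 3 to 7 lower, 1 to 8 neighbouring genes higher, and medians of -0.026 (without silenced replicate 3) to 0.19. The 0 came without control replicate 4, where limma's unadjusted p was under 0.05 for 3 members higher and 6 lower. Cyclic loess then called 7873 to 13662 probes, 7 to 14 members and 8 to 12 neighbouring genes higher, with medians of 0.18 to 0.26, the highest values without control replicate 3 (12 also without silenced replicate 4). Members lower at the 5′ probe numbered 6 (without control replicate 1) to 10.

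Replicate numbers were checked for pairing: deviations of same-numbered arrays correlated at -0.02, 0.15, 0.20 and 0.06. The silenced array that correlated best with a control array bore its number for replicates 2 and 3 and not for 1 and 4. These values do not decide whether the numbers pair the arrays. With a replicate block, 5017 probes, 3 members higher and 4 lower, and 2 neighbouring genes higher and 5 lower were called. Probes near background, such as Slc2a4 and G6pd2 on silenced arrays, limit what can be measured there.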
